A study of Homo sapiens with 8 samples.

Results

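Estrogen receptor alpha and its known target genes were followed in T47D cells, an established human breast cancer line of luminal type that expresses hormone receptors. The set holds 39 genes, ESR1 and 38 genes known to respond to estrogen in luminal breast cancer, listed by symbol with earlier results of these data known, so the list is not blind to them. All 39 were among the 28859 genes of the deposited table. In that experiment, RNA-seq was done on cells given a control plasmid or a plasmid for GATA3 with an HA tag, either the wild-type form (HA_GATA3_wt) or the truncated forms HA_GATA3_TR1 and HA_GATA3_TR2. The groups are called control, wild type, TR1 and TR2 below, with 2 libraries each. All groups share the T47D background with its own GATA3 gene. The labels give no promoter or vector for the plasmids, do not say whether a group is 1 clone or a pool of cells, and do not say where the truncated forms end. They name no hormone, hormone-free medium or antiestrogen for any group, so steady levels were compared and not responses to estrogen. They also do not say that the 2 libraries of a group came from separate cultures, so the p-values measure only the spread between these libraries, which may be technical. That spread was estimated for each gene over all groups together, although the TR1 libraries differed more from each other than those of the other groups.

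Estrogen receptor alpha is a nuclear receptor that binds DNA at estrogen response elements when it holds its ligand, and it recruits coactivators or corepressors there. In luminal breast cancer cells it drives growth and secretory genes, and it works at many enhancers together with the pioneer factors FOXA1 and GATA3. GATA3 is itself a transcription factor of the luminal lineage, and its gene is often mutated in tumours that express the receptor.

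Reads on genes numbered from 13292861 to 19572394 per library. Values are given as normalized counts, the authors' scale on which libraries were made comparable. GATA3 was counted at 13726 and 12676 in the control, 13555 and 13833 with wild type, 9506 and 8638 with TR1 and 10235 and 10588 with TR2. The wild-type libraries thus did not stand above the control (log2 fold change 0.05 ± 0.07 SE, adjusted p = 0.743), and the counts do not separate the cells' own transcripts from those of the plasmids. Of the luminal markers KRT8, KRT18, KRT19, EPCAM, CDH1, FOXA1 and GATA3, all 7 were present, with summed normalized counts from 133400 to 164000 in each library. With TR1, 4 of the 7 differed from the control at an adjusted p under 0.05 (57.1%, against 10.6% of all genes). KRT19 and KRT8 were higher, and FOXA1 and GATA3 lower. Of the basal markers, KRT5 and KRT14 had at most 3 reads per library, and TP63 was counted at 35.3 to 70.8. The leukocyte and endothelial markers had at most 3 reads per gene and library. Of the 5 fibroblast markers, DCN had 64 and 58.6 with TR1, 2.7 and 1.86 with TR2 and 0 reads elsewhere, and COL1A2 had 0 reads in all libraries. COL6A3 was counted at 29.3 to 74.5 over the 8 libraries, and LUM at 7.76 and 27.6 with TR1 and 0 elsewhere. The 5 fibroblast markers summed to 29.25 to 71.45 outside TR1 and 113.4 and 163.1 in TR1. In TR1, 16 of the 38 genes tested below differed from the control (42.1%), as did 10.6% of all genes. The part of the fibroblast markers in the results was not tested. The 11 proliferation genes summed to between 35990 and 42050 in the 8 libraries, with the lowest and the highest sum both in TR1.

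The TR1 libraries differed more from each other than those of the other groups did. Over 10424 genes with a mean normalized count of at least 100, the SD of the log2 gap between replicates was 0.383 in TR1, against 0.169 in the control, 0.119 with wild type and 0.133 in TR2. Over the 34 estrogen-related genes at that level, it was 0.370 in TR1, against 0.178, 0.118 and 0.0912. Across 9887 genes with an annotated transcript, the TR1 gap had a Pearson's r of -0.61 with the GC content of the longest transcript and 0.33 with its log2 length. The corresponding r with GC content was 0.18 in the control, 0.25 with wild type and -0.39 in TR2. Genes within a pair of libraries share depth and base composition, so this is a description. MYBL1 and NRIP1, which differed most between the TR1 libraries, had a GC content of 37.4% and 38.8%, against a median of 48.5% over these genes. Other estrogen-related genes of low GC content had smaller TR1 gaps, at 0.46 for AGR3 (36.5%), 0.19 for KCTD6 (40.0%) and -0.02 for RERG (41.1%). A link of the gap to GC content in single genes was not tested. The plot of replicate gaps shows MYBL1 and NRIP1 apart from the rest.

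**Figure D1:**
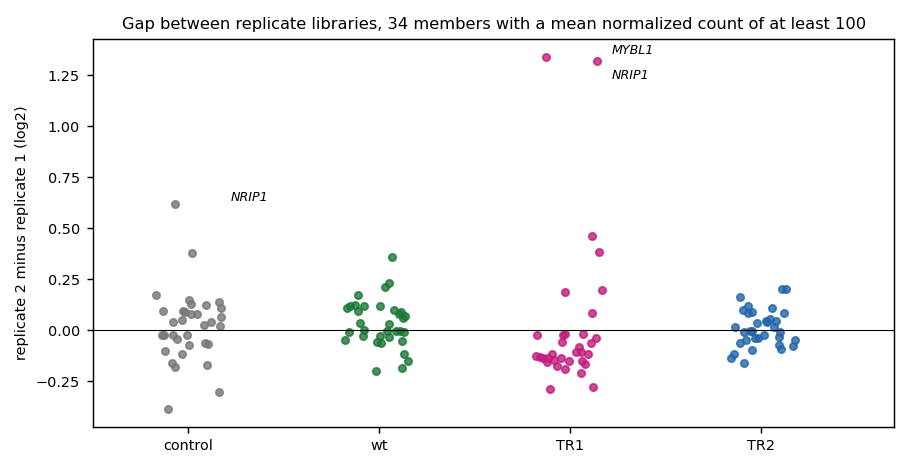
Gap between the replicate libraries of each group, as log2 of replicate 2 minus log2 of replicate 1, for the 34 estrogen-related genes with a mean normalized count of at least 100; each point is 1 gene and the black line marks no gap. MYBL1 at 1.34 and NRIP1 at 1.32 stand apart in TR1, and NRIP1 at 0.62 is the largest gap in the control.

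Promoters were compared first, because the receptor and GATA3 both bind DNA. RefSeq promoters of 300 bases (250 before and 50 after the start, GRCh38.p14) were found for 30 of the 39 genes. The full palindromic estrogen response element, GGTCA and TGACC with 3 bases between them, was in 0 of the 30 and in 20 of 35116 promoters searched (0.057%). The half-site GGTCA, counted on both strands and including any full element, was in 9 of 30 (30.0%) and in 37.4% of all promoters. The GATA motif GATAA, on both strands, was in 7 of 30 (23.3%) and in 22.7% of all. These shares describe letters in this short window only, and much of the binding of both factors is known to lie in distant enhancers. The promoters printed here are those of the 5 genes that differed in the most comparisons and of CTSD, which held the most half-sites of these 6. They are written 5′ to 3′ on the gene's strand, in lower case, with capitals for the half-site (GGTCA, or TGACC on the other strand) and for the GATA motif (GATAA, or TTATC on the other strand).
FHL2 promoter, chr2:105438464-105438763, - strand: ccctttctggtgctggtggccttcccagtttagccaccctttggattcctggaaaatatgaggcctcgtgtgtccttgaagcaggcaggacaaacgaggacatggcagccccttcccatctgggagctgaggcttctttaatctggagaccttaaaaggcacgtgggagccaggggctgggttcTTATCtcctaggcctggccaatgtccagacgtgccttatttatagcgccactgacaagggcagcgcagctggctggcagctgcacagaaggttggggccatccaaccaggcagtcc
CXCL12 promoter, chr10:44385048-44385347, - strand: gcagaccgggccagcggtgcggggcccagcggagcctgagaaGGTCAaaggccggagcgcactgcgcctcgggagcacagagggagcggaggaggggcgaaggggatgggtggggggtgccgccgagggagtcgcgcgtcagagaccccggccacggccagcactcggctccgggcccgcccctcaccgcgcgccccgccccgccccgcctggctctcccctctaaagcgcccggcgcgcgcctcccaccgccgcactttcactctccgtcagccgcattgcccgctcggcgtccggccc
IGFBP5 promoter, chr2:216695500-216695799, - strand: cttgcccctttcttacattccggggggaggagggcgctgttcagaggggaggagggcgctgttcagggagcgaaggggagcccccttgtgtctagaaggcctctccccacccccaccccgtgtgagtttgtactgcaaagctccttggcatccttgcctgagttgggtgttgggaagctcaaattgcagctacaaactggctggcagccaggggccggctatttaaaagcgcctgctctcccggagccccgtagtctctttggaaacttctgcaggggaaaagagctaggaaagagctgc
SERPINA1 promoter, chr14:94390586-94390885, - strand: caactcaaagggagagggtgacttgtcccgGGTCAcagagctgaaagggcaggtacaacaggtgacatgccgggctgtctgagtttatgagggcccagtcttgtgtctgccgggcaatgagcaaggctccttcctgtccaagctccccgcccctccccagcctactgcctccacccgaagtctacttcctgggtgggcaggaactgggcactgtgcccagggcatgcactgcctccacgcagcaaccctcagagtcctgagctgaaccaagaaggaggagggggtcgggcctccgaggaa
PRSS23 promoter, chr11:86800292-86800591, + strand: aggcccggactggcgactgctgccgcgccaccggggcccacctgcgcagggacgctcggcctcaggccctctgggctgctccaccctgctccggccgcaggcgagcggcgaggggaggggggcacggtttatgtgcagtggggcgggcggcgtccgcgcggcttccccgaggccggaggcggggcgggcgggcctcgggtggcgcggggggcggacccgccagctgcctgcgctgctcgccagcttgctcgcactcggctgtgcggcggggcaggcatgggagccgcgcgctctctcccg
CTSD promoter, chr11:1763878-1764177, - strand: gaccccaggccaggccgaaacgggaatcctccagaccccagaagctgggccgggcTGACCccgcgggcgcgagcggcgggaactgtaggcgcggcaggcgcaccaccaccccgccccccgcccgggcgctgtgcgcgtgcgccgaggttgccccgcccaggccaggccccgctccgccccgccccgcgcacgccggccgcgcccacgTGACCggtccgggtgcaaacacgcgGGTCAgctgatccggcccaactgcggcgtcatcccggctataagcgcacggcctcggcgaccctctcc

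FHL2 held 1 GATA motif and no half-site, CXCL12 and SERPINA1 held 1 half-site each, CTSD held 3 half-sites, and IGFBP5 and PRSS23 held neither motif. The 3 half-sites of CTSD are not spaced as a palindromic element.

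Each gene was tested in 6 comparisons with limma over all genes that passed a filter on low counts, and a gene is called where its Benjamini-Hochberg adjusted p was under 0.05. TFF1 did not pass the filter, and the counts below are of the other 38 genes. With TR1, 16 of 38 differed from the control (42.1%), 10 higher and 6 lower. The background was 10.6% of the 14881 genes tested, 4.91% higher and 5.69% lower. The median log2 fold change of the 38 was 0.13, against 0.02 over all genes. Against wild type, 19 of 38 were called in TR1 (50%), 10 higher and 9 lower, where 15% of all genes were called, 7.6% higher and 7.38% lower. The median was 0.03 over the 38 and 0.02 over all genes. Of the 38 genes, 34 had a mean normalized count of at least 100, as had 10424 of the 14881 genes tested, and the part of this difference in level in the shares called was not tested.

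With TR2, 2 of 38 differed from the control (5.26%), both higher, where 0.921% of all genes were called, 0.524% higher and 0.396% lower. Between TR2 and wild type 10 of 38 were called (26.3%), 7 higher and 3 lower with TR2, against 5.24% of all genes, 2.75% higher and 2.49% lower. With wild type, 4 of 38 differed from the control (10.5%), 2 in each direction, against 1.69% of all genes, 0.685% higher and 1% lower. Between TR2 and TR1 4 of 38 were called (10.5%), again 2 in each direction, against 1.22% of all genes, 0.585% higher and 0.632% lower. The comparisons share libraries and are not independent of each other. In all, 24 of the 38 were called in at least 1 comparison, against 18.1% of all genes, and 14 in none.

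These 55 calls were repeated under 17 alternatives, 8 that left out 1 library each and 9 other settings. With every alternative, 20 calls held, 7 of TR1 against the control, 9 of TR1 against wild type and 4 of TR2 against wild type. In the other 3 comparisons, none of the calls held with every alternative. The calls of all genes were not followed in this way, so whether these genes held more often than others is not known. The number called in TR1 against the control was 7 with only the groups compared, where 3.25% of all genes were called, and 25 with GC and length trends taken out, where 19.1% were. In TR2 against the control it was 16 and 10 with these settings, where 14.2% and 2.96% of all genes were called. Against the control, TR1 thus had more calls than TR2 in the fit of all groups, but fewer with only the groups compared. The fit of all groups shares 1 spread per gene, while the other leaves the TR1 libraries out of TR2 against the control. Leaving out TR1 replicate 1 gave 22 for TR1 (34.7% of all genes) and 16 for TR2 (18.4%) against the control, and leaving out control replicate 1 gave 7 (4.06%) and 0 (0.208%). The share of all genes called thus moved in the same direction as the count of the 38. Where a call was lost, the libraries and settings are named beside it.

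**Figure D2:**
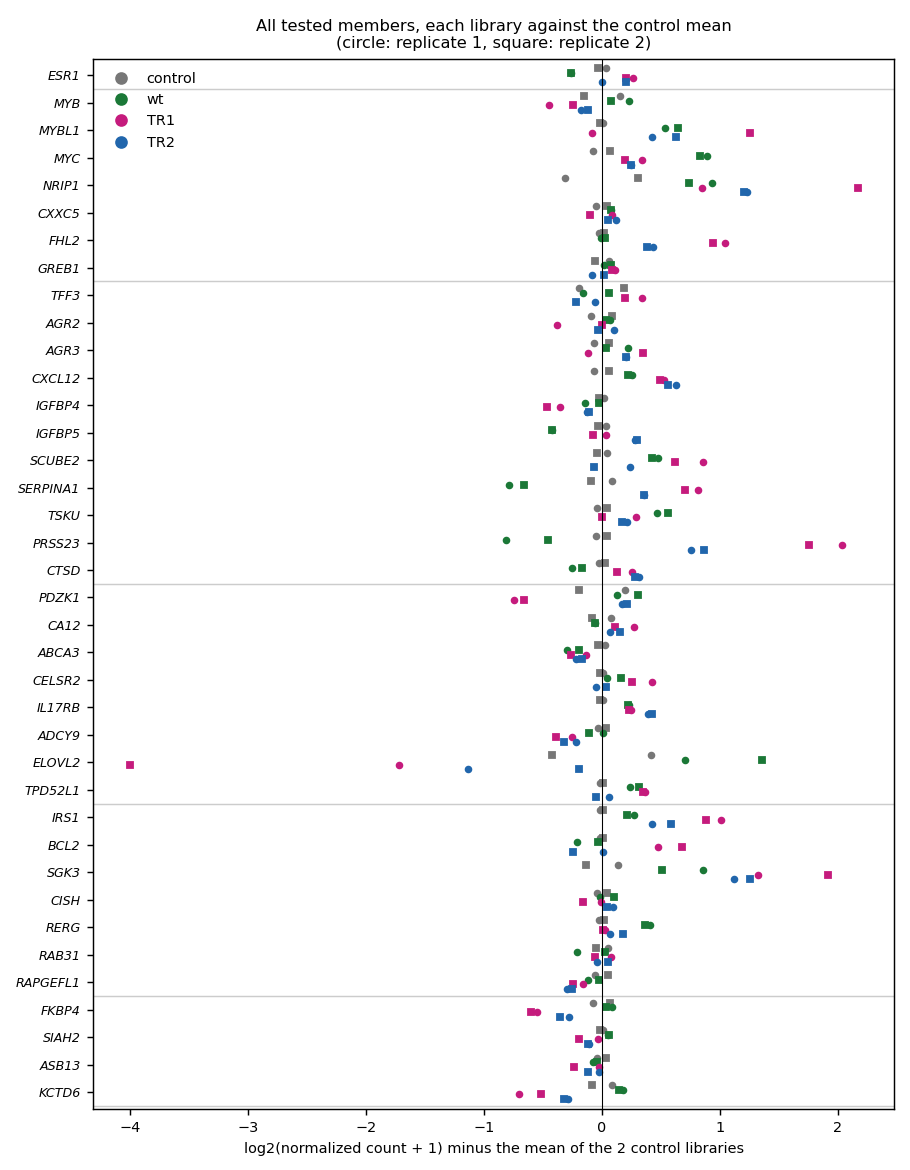
Each of the 38 tested genes in each of the 8 libraries, as log2(normalized count + 1) minus the mean of the control libraries on the horizontal axis; colours mark the group, and circles and squares mark replicates 1 and 2. ELOVL2, PRSS23, SGK3 and NRIP1 spread the widest, while GREB1, CXXC5 and SIAH2 stay close to the control line in all libraries.

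ESR1, the gene of estrogen receptor alpha (ENSG00000091831, chromosome 6, 151656691 to 152129619), was lowest with wild-type GATA3. It was measured at 3437 and 3272 in the control, 2804 and 2796 with wild type, 4035 and 3871 with TR1 and 3358 and 3872 with TR2. Both wild-type libraries lay below all others and both TR1 libraries above the control, while TR2 overlapped the control and TR1. ESR1 was 1.41-fold higher with TR1 than with wild type (log2 fold change 0.50 ± 0.08 SE, adjusted p = 0.00319), and this call held with every alternative. It was also higher with TR2 than with wild type (0.36 ± 0.08, adjusted p = 0.0286), a call that did not hold without either control library, either wild-type library or TR2 replicate 2 and with an untrended prior, no filter, median centring or a replicate block (adjusted p from 3.66e-05 to 0.215 over the 17 alternatives). In order of mean level, the groups ran from wild type through the control and TR2 to TR1. Neighbours in that order did not differ past the threshold, with an adjusted p of 0.175 for wild type against the control, 0.475 for TR2 against the control and 0.66 for TR2 against TR1. The 95% interval of the wild-type difference from the control ran from -0.43 to -0.09 on the log2 scale, and that of TR1 against the control was 0.06 to 0.41.

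GREB1 and TFF3 showed no called difference, and TFF1 was too low to be tested. GREB1, a cofactor of the receptor and one of its most direct targets (ENSG00000196208, chromosome 2, 11482341 to 11642788), had normalized counts of 7258 and 6697 in the control, 7058 and 7359.9 with wild type, 7521 and 7401 with TR1 and 6603 and 7070.0 with TR2. The control, wild type and TR2 overlapped, both TR1 libraries lay just above them, and the largest difference was TR2 against TR1 (log2 fold change -0.13 ± 0.06 SE, adjusted p = 0.584). TFF3, a secreted trefoil peptide (ENSG00000160180, chromosome 21, 42311667 to 42315651), had normalized counts of 235 and 306, 241 and 279.6, 340.3 and 307 and 257 and 230.1 in the same order of groups. Both TR1 libraries were the highest, by little over the second control library, and TR1 against wild type gave 0.32 ± 0.15, adjusted p = 0.213. TFF1, the trefoil peptide gene often used as an estrogen reporter (ENSG00000160182, chromosome 21, 42362282 to 42366594), was nearly silent in every group. Its libraries held 4 and 4 reads in the control, 10 and 3 with wild type, 5 and 2 with TR1 and 7 and 1 with TR2, and at this depth no difference could be measured.

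Of the 7 transcription factors and cofactors that estrogen regulates, FHL2 showed the steadiest change. FHL2 encodes a LIM-domain scaffold that binds nuclear receptors and other transcription factors (ENSG00000115641, chromosome 2, 105357712 to 105438513). Its normalized counts were 1362 and 1401 in the control, 1379 and 1407 with wild type, 2855 and 2651 with TR1 and 1865 and 1804 with TR2. All TR1 libraries lay above all TR2 libraries, and those above the control and wild type, which overlapped. FHL2 rose 1.99-fold with TR1 against the control (log2 fold change 0.99 ± 0.07 SE, adjusted p = 5.16e-05) and 1.98-fold against wild type (0.98 ± 0.07, adjusted p = 3.44e-05), and both calls held with every alternative. With TR2 it rose 1.33-fold against the control (0.41 ± 0.07, adjusted p = 0.0299), a call that did not hold without either control library, either wild-type library or either TR2 library and with an untrended prior, no filter, median centring or a replicate block (adjusted p from 0.00033 to 0.319 over the 17 alternatives). Against wild type the TR2 rise was 0.40 ± 0.07, adjusted p = 0.0111, and this call did not hold without either wild-type library or either TR2 library and with median centring (adjusted p from 9.09e-06 to 0.13 over the 17 alternatives). FHL2 was lower with TR2 than with TR1 (-0.58 ± 0.07, adjusted p = 0.00457), which did not hold without either TR2 library and with only the groups compared (adjusted p from 0.000134 to 0.09 over the 17 alternatives).

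MYC, a growth-promoting transcription factor that estrogen induces early (ENSG00000136997, chromosome 8, 127735434 to 127741434), was highest with wild type. It was measured at 193 and 213 in the control, 379 and 363 with wild type, 258 and 233 with TR1 and 242 and 241 with TR2. Both wild-type libraries lay above all others, and TR1 and TR2 overlapped just above the control. MYC rose 1.82-fold with wild type (log2 fold change 0.87 ± 0.11 SE, adjusted p = 0.0064), a call that did not hold without control replicate 1 or either wild-type library (adjusted p from 0.000128 to 0.0967 over the 17 alternatives). In TR1 it lay below wild type (-0.60 ± 0.11, adjusted p = 0.00731), which did not hold without either wild-type library (adjusted p from 0.000978 to 0.0752 over the 17 alternatives). In TR2 it also lay below wild type (-0.62 ± 0.11, adjusted p = 0.0136), which did not hold without either wild-type library or either TR2 library (adjusted p from 1.82e-05 to 0.133 over the 17 alternatives). MYB, a related regulator of proliferating cells whose transcription estrogen releases (ENSG00000118513, chromosome 6, 135181315 to 135219173), had normalized counts of 416 and 336, 438 and 395, 274 and 315 and 331 and 344 in the control, wild type, TR1 and TR2. The TR1 libraries were the lowest, and MYB was lower with TR1 than with wild type (-0.50 ± 0.13, adjusted p = 0.0338). That call did not hold without either wild-type library or either TR2 library and with an untrended prior, no filter, only the groups compared or a replicate block (adjusted p from 0.00517 to 0.217 over the 17 alternatives).

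NRIP1, a corepressor that estrogen induces and that binds the liganded receptor (ENSG00000180530, chromosome 21, 14961235 to 15065936), had normalized counts of 98.8 and 152 in the control, 236 and 205 with wild type, 222 and 556 with TR1 and 289 and 285 with TR2. All 6 libraries with a GATA3 plasmid were above both control libraries, but the TR1 libraries lay on either side of the TR2 libraries. Its level with TR1 was 2.85-fold that of the control (log2 fold change 1.51 ± 0.37 SE, adjusted p = 0.0344). The call did not hold without either control library, either wild-type library or either TR2 library and with an untrended prior, no filter, only the groups compared or voom weights (adjusted p from 2.15e-06 to 0.193 over the 17 alternatives). MYBL1, a MYB relative (ENSG00000185697, chromosome 8, 66562175 to 66614247), had normalized counts of 366 and 929 in TR1, which spanned all other libraries, against 391 and 385 in the control, 565 and 609 with wild type and 520.5 and 599 with TR2. None of its differences was called, and its direction between TR1 and the other groups depended on which TR1 library was left out. The fit gives each gene 1 spread over all groups, so the wide TR1 gap enters every comparison of MYBL1 and NRIP1. For wild type and TR2 against the control, the SE was thus 0.34 for MYBL1 and 0.37 for NRIP1. The wild-type and TR2 libraries of both genes all lay above the control, so the missing calls there do not show equal levels. The zinc finger gene CXXC5 ranged only from 1517 to 1758 over the 8 libraries.

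Of 11 tested genes for secreted proteins, 5 were called in TR1 against the control, 4 higher and 1 lower, where 10.6% of all genes were called. Against wild type, 7 were called in TR1, 5 higher and 2 lower, and 5 in TR2, all higher, where 15% and 5.24% of all genes were called. SERPINA1 encodes alpha-1 antitrypsin, an inhibitor of serine proteases (ENSG00000197249, chromosome 14, 94376747 to 94390693). Its normalized counts were 1938 and 1713 in the control, 1059 and 1156 with wild type, 3212 and 2969 with TR1 and 2339.9 and 2332 with TR2. No groups overlapped, and the order was wild type, control, TR2 and TR1. SERPINA1 rose 1.7-fold with TR1 against the control (log2 fold change 0.76 ± 0.08 SE, adjusted p = 9e-04), and it was 2.79-fold higher with TR1 (1.48 ± 0.08, adjusted p = 1.15e-05) and 2.11-fold higher with TR2 (1.08 ± 0.08, adjusted p = 0.000217) than with wild type. These 3 calls held with every alternative. It fell 1.65-fold with wild type against the control (-0.72 ± 0.08, adjusted p = 0.00459), which did not hold without control replicate 1 or wild-type replicate 1 (adjusted p from 2.04e-05 to 0.0788 over the 17 alternatives).

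PRSS23, a serine protease gene that estrogen induces (ENSG00000150687, chromosome 11, 86791059 to 86952910), had the largest rises among the well-counted genes. It was measured at 54.8 and 58.5 in the control, 31.8 and 41.1 with wild type, 236 and 194 with TR1 and 96.2 and 104 with TR2. The groups did not overlap and kept the order of SERPINA1. PRSS23 rose 3.73-fold with TR1 against the control (log2 fold change 1.90 ± 0.18 SE, adjusted p = 0.000442), and was 5.78-fold higher with TR1 (2.53 ± 0.18, adjusted p = 4.64e-05) and 2.72-fold higher with TR2 (1.44 ± 0.18, adjusted p = 0.00249) than with wild type. These 3 calls held with every alternative. It was lower with TR2 than with TR1 (-1.09 ± 0.18, adjusted p = 0.0269), which did not hold without either control library or either TR2 library and with an untrended prior, no filter or only the groups compared (adjusted p from 0.00364 to 0.261 over the 17 alternatives). PRSS23 shares 1399 exon bases (11.93% of its exons) with FZD4 on the opposite strand, and the strand setting of the counting is not stated, so the level of PRSS23 is uncertain. FZD4 went the other way, at 916 and 949.5 in the control, 987 and 999.7 with wild type, 654 and 657 with TR1 and 778 and 774 with TR2 (TR1 against wild type -0.60 ± 0.07, adjusted p = 0.000773).

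CXCL12, the chemokine that binds CXCR4 (ENSG00000107562, chromosome 10, 44370165 to 44386493), had normalized counts of 3164 and 3463 in the control, 3943 and 3872 with wild type, 4769 and 4648 with TR1 and 5118 and 4875 with TR2. All 6 libraries with a GATA3 plasmid were above the control, and both truncated forms were above wild type. It rose 1.42-fold with TR1 against the control (log2 fold change 0.51 ± 0.06 SE, adjusted p = 0.00176), a call that held with every alternative. The rise with TR2 was 1.51-fold (0.59 ± 0.06, adjusted p = 0.00462), and it did not hold without control replicate 1 or either TR2 library and with an untrended prior (adjusted p from 1.90e-05 to 0.0854 over the 17 alternatives). Against wild type, CXCL12 was higher with TR1 (0.27 ± 0.06, adjusted p = 0.0247), a call that did not hold without either wild-type library or either TR2 library and with an untrended prior, median centring, only the groups compared or a replicate block (adjusted p from 0.00661 to 0.188 over the 17 alternatives). It was also higher with TR2 (0.35 ± 0.06, adjusted p = 0.0158), a call that did not hold without either wild-type library or either TR2 library and with an untrended prior or median centring (adjusted p from 8.09e-06 to 0.17 over the 17 alternatives).

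The insulin-like growth factor binding proteins, which hold growth factors in the extracellular space, were lowest in different groups. IGFBP5 (ENSG00000115461, chromosome 2, 216672105 to 216695525) had normalized counts of 16863 and 16097 in the control, 12312 and 12275 with wild type, 16939 and 15613 with TR1 and 20057 and 20313 with TR2. Wild type was below and TR2 above all other libraries, and TR1 overlapped the control. IGFBP5 was 1.64-fold higher with TR2 (log2 fold change 0.72 ± 0.06 SE, adjusted p = 0.000276) and 1.32-fold higher with TR1 (0.40 ± 0.06, adjusted p = 0.00216) than with wild type, and both calls held with every alternative. It fell 1.34-fold with wild type against the control (-0.42 ± 0.06, adjusted p = 0.00985), which did not hold without either control library or either wild-type library and with an untrended prior (adjusted p from 6.93e-05 to 0.128 over the 17 alternatives). It was higher with TR2 than with TR1 (0.31 ± 0.06, adjusted p = 0.0435), which did not hold without either control library, either wild-type library or either TR2 library and with an untrended prior, no filter, median centring, only the groups compared or a replicate block (adjusted p from 0.00101 to 0.349 over the 17 alternatives). IGFBP4 (ENSG00000141753, chromosome 17, 40443461 to 40457731) had normalized counts of 10188 and 9911, 9114 and 9909, 7852 and 7306 and 9230.1 and 9328 in the control, wild type, TR1 and TR2, with both TR1 libraries the lowest. It fell 1.33-fold with TR1 against the control (-0.41 ± 0.06, adjusted p = 0.0047), which did not hold without control replicate 1 and with only the groups compared (adjusted p from 6.88e-05 to 0.0569 over the 17 alternatives). It was 1.25-fold lower with TR1 than with wild type (-0.33 ± 0.06, adjusted p = 0.00934), which did not hold without wild-type replicate 2 and with an untrended prior or only the groups compared (adjusted p from 0.000462 to 0.119 over the 17 alternatives).

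CTSD encodes cathepsin D, a lysosomal protease that breast cancer cells also secrete (ENSG00000117984, chromosome 11, 1752752 to 1764573). Its normalized counts were 9969.6 and 10318 in the control, 8531 and 9018 with wild type, 12119.5 and 11071 with TR1 and 12637 and 12308 with TR2. No groups overlapped, with wild type the lowest and TR2 the highest. CTSD was 1.42-fold higher with TR2 than with wild type (log2 fold change 0.51 ± 0.06 SE, adjusted p = 0.0022), a call that held with every alternative. With TR1 it was 1.32-fold higher (0.40 ± 0.06, adjusted p = 0.00339), which did not hold without wild-type replicate 1 (adjusted p from 7.53e-05 to 0.0532 over the 17 alternatives). On the same strand, 41.71% of the exon bases of CTSD are shared with the annotated gene AC068580.4, so its count may not hold all of its reads.

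Of the rarer secreted proteins, SCUBE2, which helps release hedgehog ligands (ENSG00000175356, chromosome 11, 9019498 to 9138114), had normalized counts of 75.2 and 70.7 in the control, 102 and 98.1 with wild type, 133 and 113 with TR1 and 86.3 and 69.6 with TR2. The TR1 libraries were the highest, and SCUBE2 rose 1.67-fold with TR1 against the control (log2 fold change 0.74 ± 0.17 SE, adjusted p = 0.025). This call did not hold without either control library or either wild-type library and with only the groups compared (adjusted p from 0.00494 to 0.129 over the 17 alternatives). TSKU, a secreted leucine-rich protein that modulates growth factor signals (ENSG00000182704, chromosome 11, 76782251 to 76798154), had normalized counts of 542 and 577, 776 and 826, 683 and 559 and 647 and 631 in the control, wild type, TR1 and TR2. Its wild-type libraries were the highest, and TR1 was lower than wild type (-0.37 ± 0.11, adjusted p = 0.0472). That call did not hold without either control library, either wild-type library, TR1 replicate 2 or either TR2 library and with an untrended prior, no filter, median centring, only the groups compared or a replicate block (adjusted p from 0.000749 to 0.275 over the 17 alternatives). The disulfide isomerase relatives AGR2 (3269 to 4571 over the 8 libraries) and AGR3 (318 to 438) were called in no comparison.

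Of the 8 membrane proteins, transporters and scaffolds, 5 were called in TR1 against the control (10.6% of all genes) and none by limma in wild type or TR2 against the control, where 3 each had an unadjusted p under 0.05. PDZK1, a scaffold that holds transporters at the membrane (ENSG00000174827, chromosome 1, 145670852 to 145708148), had normalized counts of 266 and 204 in the control, 255 and 288 with wild type, 139 and 147 with TR1 and 262 and 270.0 with TR2. Only the TR1 libraries stood apart, below all 6 others. PDZK1 was 1.89-fold lower with TR1 than with wild type (log2 fold change -0.92 ± 0.14 SE, adjusted p = 0.00357), a call that held with every alternative. It fell 1.62-fold against the control (-0.70 ± 0.14, adjusted p = 0.0179), which did not hold without control replicate 1 and with only the groups compared (adjusted p from 0.0022 to 0.122 over the 17 alternatives). It was 1.86-fold higher with TR2 than with TR1 (0.89 ± 0.14, adjusted p = 0.0242), which did not hold without either wild-type library or either TR2 library and with an untrended prior or only the groups compared (adjusted p from 0.0027 to 0.237 over the 17 alternatives). PDZK1 has a pseudogene copy in the genome, and reads shared with it may be counted for neither.

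ELOVL2, an elongase of polyunsaturated fatty acids (ENSG00000197977, chromosome 6, 10980759 to 11044314), was counted low throughout, with 19 and 9 reads in the control, 26 and 35 with wild type, 4 and 0 with TR1 and 7 and 14 with TR2. The TR1 libraries were below all others. On the log2(value + 1) scale the difference of TR1 was -3.89 from wild type (adjusted p = 0.00743) and -2.86 from the control (adjusted p = 0.0378). These sizes depend on the pseudocount, since with 10 in place of 1 they were -1.83 and -1.10. The wild-type call did not hold without wild-type replicate 2 (adjusted p from 1.98e-05 to 0.0743 over the 16 alternatives). The call against the control did not hold without either control library, either wild-type library or either TR2 library and with an untrended prior, no filter, only the groups compared or voom weights (adjusted p from 8.74e-05 to 0.193 over the 16 alternatives).

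CELSR2, an atypical cadherin of the flamingo family (ENSG00000143126, chromosome 1, 109250019 to 109275750), had normalized counts of 1760.0 and 1735 in the control, 1802 and 1961 with wild type, 2353 and 2087 with TR1 and 1685 and 1796 with TR2. The TR1 libraries were the highest, and CELSR2 rose 1.27-fold against the control (log2 fold change 0.34 ± 0.08 SE, adjusted p = 0.0314). The call did not hold without either control library, either wild-type library or either TR2 library and with an untrended prior, no filter, median centring, only the groups compared or a replicate block (adjusted p from 0.00197 to 0.182 over the 17 alternatives). TPD52L1, a coiled-coil protein of vesicle traffic (ENSG00000111907, chromosome 6, 125119049 to 125264407), had normalized counts of 1445 and 1468, 1721 and 1810.0, 1881 and 1852 and 1524 and 1406 in the same order of groups. Wild type and TR1 were both above the control, and TPD52L1 rose 1.28-fold with TR1 (0.36 ± 0.07, adjusted p = 0.014). This call did not hold without either control library and with an untrended prior, median centring or only the groups compared (adjusted p from 0.0029 to 0.142 over the 17 alternatives). TPD52L1 shares 191 exon bases (2.51% of its exons) with HDDC2 on the opposite strand, which had up to 788 reads, and its level is uncertain to that extent. ADCY9, an adenylyl cyclase (ENSG00000162104, chromosome 16, 3953387 to 4116185), had normalized counts of 1219.9 and 1277, 1256 and 1159.5, 1048 and 954 and 1072 and 1001. The control and wild type overlapped above TR1 and TR2, and ADCY9 fell 1.25-fold with TR1 against the control (-0.32 ± 0.08, adjusted p = 0.0435). That call did not hold without either control library, either wild-type library, TR1 replicate 2 or either TR2 library and with an untrended prior, no filter, only the groups compared or a replicate block (adjusted p from 0.00258 to 0.202 over the 17 alternatives). Carbonic anhydrase CA12 (7339 to 9345), the lipid transporter ABCA3 (4485 to 5613) and the interleukin receptor IL17RB (407 to 553) were called in no comparison. Every IL17RB library with a GATA3 plasmid was above both control libraries, and TR2 against the control gave 0.41 ± 0.08, adjusted p = 0.0598.

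Among signalling and survival genes, IRS1 and SGK3 of the insulin and growth factor pathway rose in TR1. IRS1, the docking protein of the insulin-like growth factor receptor (ENSG00000169047, chromosome 2, 226731317 to 226799759), had normalized counts of 282 and 288 in the control, 344 and 331 with wild type, 575 and 527 with TR1 and 383 and 429 with TR2. No groups overlapped, and the order was control, wild type, TR2 and TR1. IRS1 rose 1.93-fold with TR1 against the control (log2 fold change 0.95 ± 0.10 SE, adjusted p = 0.000713) and was 1.63-fold higher than with wild type (0.70 ± 0.10, adjusted p = 0.00207), and both calls held with every alternative. With TR2 against the control it was 0.51 ± 0.10, adjusted p = 0.0595, short of the threshold.

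SGK3, a kinase that acts downstream of phosphoinositide signals (ENSG00000104205, chromosome 8, 66667596 to 66862022), had normalized counts of 51.5 and 42.7 in the control, 85.7 and 67.3 with wild type, 119 and 179.9 with TR1 and 103 and 113 with TR2. The groups kept the order of IRS1 without overlap. SGK3 rose 3.08-fold with TR1 against the control (log2 fold change 1.62 ± 0.23 SE, adjusted p = 0.00287), a call that held with every alternative. It was 1.92-fold higher than with wild type (0.94 ± 0.23, adjusted p = 0.0246), which did not hold without either wild-type library or either TR2 library and with an untrended prior or only the groups compared (adjusted p from 0.000672 to 0.183 over the 17 alternatives). SGK3 shares 6.04% of its exon bases with C8orf44, which had at most 47 reads in a library.

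BCL2, the inhibitor of apoptosis (ENSG00000171791, chromosome 18, 63123346 to 63320128), had normalized counts of 74.1 and 75.6 in the control, 64.5 and 73 with wild type, 105 and 120.5 with TR1 and 75.5 and 63.1 with TR2. The TR1 libraries were above all others, and BCL2 was 1.63-fold higher with TR1 than with wild type (log2 fold change 0.70 ± 0.17 SE, adjusted p = 0.0239). The call did not hold without either wild-type library or TR1 replicate 2 and with only the groups compared (adjusted p from 0.00888 to 0.159 over the 17 alternatives). RERG, a small GTPase that restrains growth (ENSG00000134533, chromosome 12, 15107783 to 15348675), had normalized counts of 1097 and 1129, 1481 and 1436, 1136 and 1124 and 1166 and 1265 in the control, wild type, TR1 and TR2, and the wild-type libraries were the highest. It rose 1.31-fold with wild type against the control (0.39 ± 0.07, adjusted p = 0.034), which did not hold without either control library, either wild-type library or either TR2 library and with an untrended prior, no filter, median centring, a replicate block or GC and length trends taken out (adjusted p from 0.00183 to 0.328 over the 17 alternatives). It was lower with TR1 than with wild type (-0.37 ± 0.07, adjusted p = 0.00989), which did not hold without either wild-type library and with only the groups compared (adjusted p from 0.00253 to 0.102 over the 17 alternatives). The cytokine signal inhibitor CISH (278 to 333), the trafficking GTPase RAB31 (251 to 306) and the exchange factor relative RAPGEFL1 (1744 to 2229) were called in no comparison. CISH shares 218 exon bases (4.26% of its exons) with MAPKAPK3 on the opposite strand, which had up to 1451 reads, so the level of CISH is uncertain.

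Of the 4 chaperone and ubiquitin ligase genes, FKBP4 and KCTD6 were called, each lower with TR1 than in the control and lower with TR1 and TR2 than with wild type, where 10.6%, 15% and 5.24% of all genes were called. FKBP4, a cochaperone of HSP90 that matures steroid receptors (ENSG00000004478, chromosome 12, 2794953 to 2805423), had normalized counts of 10758 and 11913 in the control, 12055 and 11630.5 with wild type, 7745 and 7451 with TR1 and 9338 and 8846 with TR2. The control and wild type overlapped above TR2, and TR2 lay above TR1. FKBP4 fell 1.49-fold with TR1 against the control (log2 fold change -0.58 ± 0.07 SE, adjusted p = 0.00105) and lay 1.56-fold below wild type (-0.64 ± 0.07, adjusted p = 0.000339), and both calls held with every alternative. With TR2 it was 1.3-fold lower than with wild type (-0.38 ± 0.07, adjusted p = 0.0119), which did not hold without either wild-type library or either TR2 library and with an untrended prior or median centring (adjusted p from 1.78e-06 to 0.14 over the 17 alternatives).

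KCTD6, an adaptor of a cullin ubiquitin ligase (ENSG00000168301, chromosome 3, 58492114 to 58502360), followed the same order of groups. It was measured at 586 and 522 in the control, 625 and 611 with wild type, 340.3 and 387 with TR1 and 452 and 443 with TR2. Both truncated forms lay below all control and wild-type libraries. KCTD6 was 1.7-fold lower with TR1 than with wild type (log2 fold change -0.77 ± 0.10 SE, adjusted p = 0.00138), a call that held with every alternative. It fell 1.52-fold against the control (-0.61 ± 0.10, adjusted p = 0.00673), which did not hold without control replicate 1 and with only the groups compared (adjusted p from 0.000229 to 0.0718 over the 17 alternatives). It was also lower with TR2 than with wild type (-0.47 ± 0.10, adjusted p = 0.0323), which did not hold without either wild-type library or either TR2 library and with an untrended prior, no filter or a replicate block (adjusted p from 5.37e-05 to 0.227 over the 17 alternatives). The ubiquitin ligase SIAH2 (2028 to 2419) and the adaptor ASB13 (619 to 747) were called in no comparison.

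**Figure D3:**
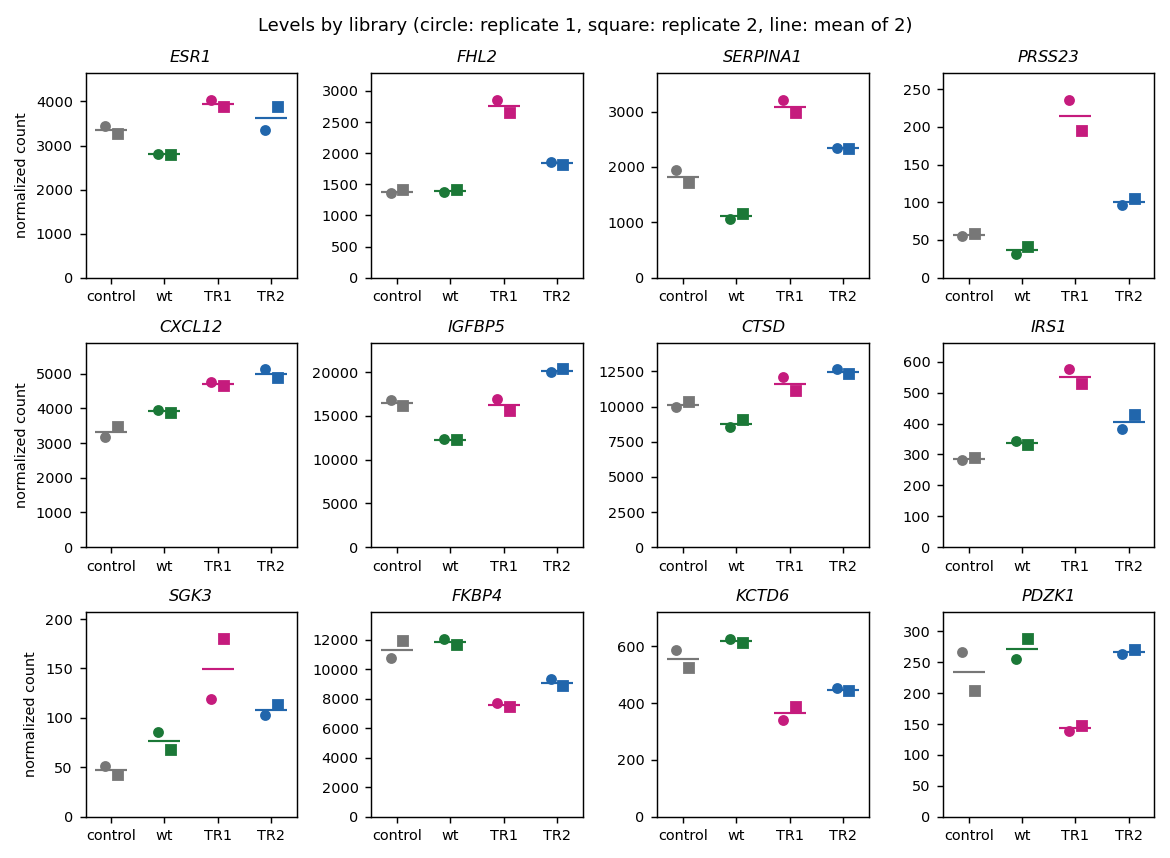
Normalized counts of 12 genes by group, with circles for replicate 1, squares for replicate 2 and a line at the mean of 2; each panel starts at 0 on its own scale. FHL2, SERPINA1, PRSS23 and IRS1 are highest in TR1, CXCL12, IGFBP5 and CTSD are highest in TR2, and FKBP4, KCTD6 and PDZK1 are lowest in TR1.

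**Figure D4:**
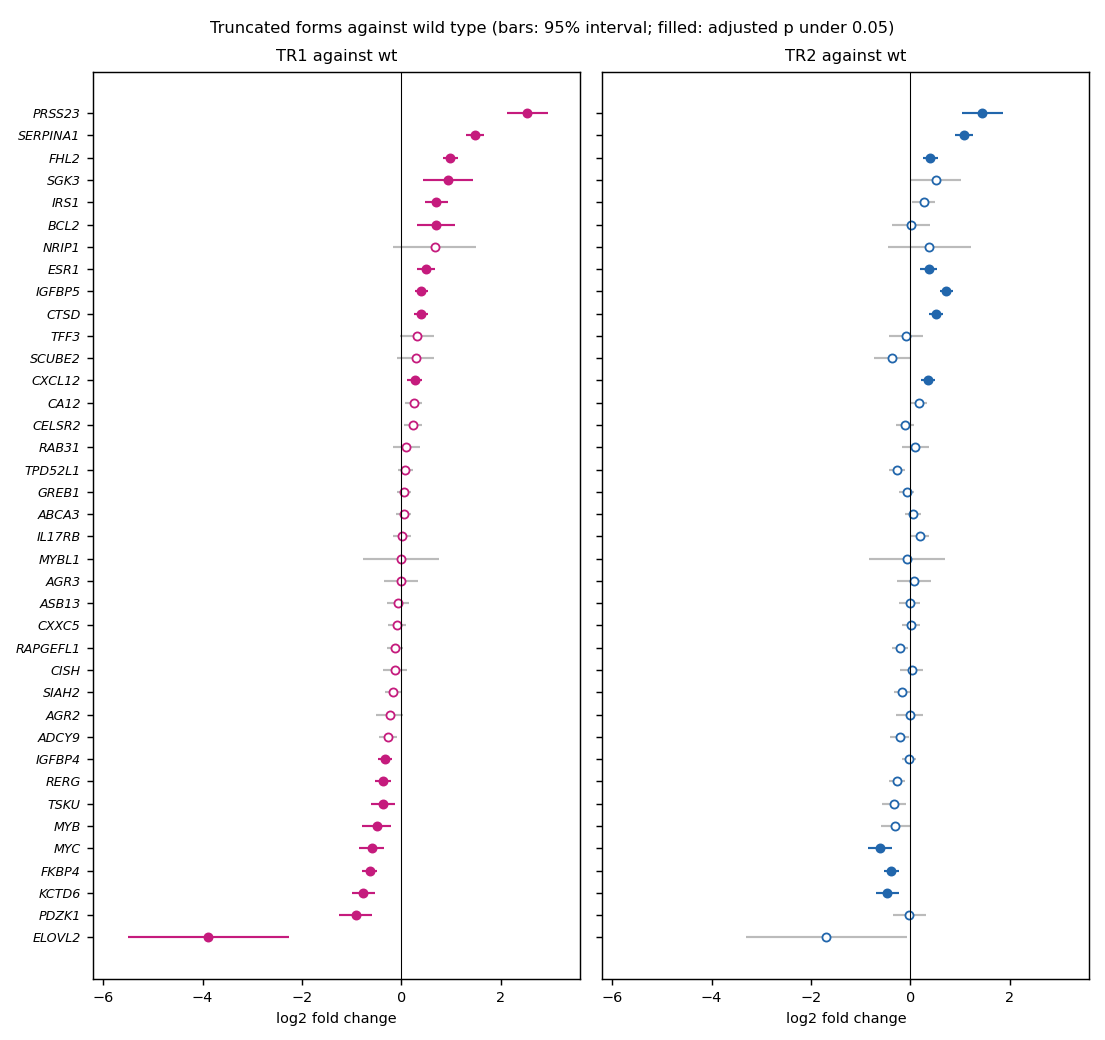
Log2 fold change of TR1 (left) and TR2 (right) against wild type for the 38 tested genes, ordered by the TR1 value, with bars for the 95% interval and filled points for an adjusted p under 0.05. TR1 has 19 filled points and TR2 has 10, and ELOVL2 and PRSS23 mark the ends of the TR1 order.

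Per kb of the longest annotated transcript, the genes spanned a wide range of levels. In the control CTSD was highest at 4778 normalized counts per kb, followed by IGFBP4 at 4568, FKBP4 at 3037, IGFBP5 at 2652 and AGR2 at 2392. ESR1 was 13th of 39 at 519, and the lowest were TFF1 at 8.32 and ELOVL2 at 3.92. CTSD ranked 1st in the control, TR1 and TR2, and IGFBP4 ranked 1st with wild type. SERPINA1 ranked 14th in the control and 17th with wild type, but 9th in TR1 and 11th in TR2. The 39 genes took between 0.583% and 0.655% of all normalized counts, with the lowest shares in the wild-type libraries (0.583% and 0.590%) and the highest in TR2 (0.644% and 0.655%).

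**Figure D5:**
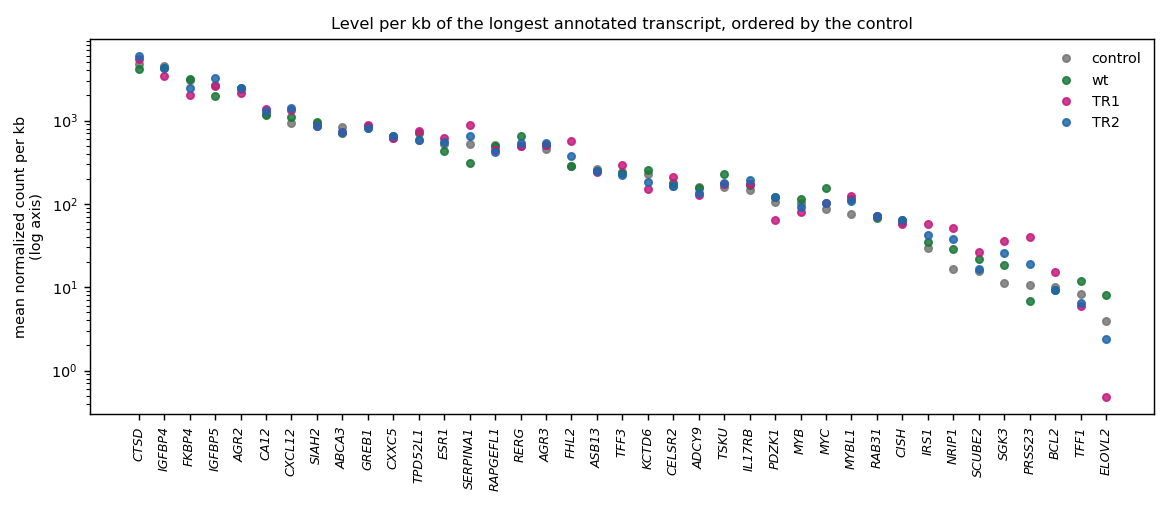
Mean normalized count per kb of the longest annotated transcript for the 39 genes in the 4 groups, on a log axis and ordered by the control. CTSD leads at 4778 in the control and ELOVL2 ends the order at 3.92, and PRSS23 shows the widest rise in TR1 among the low genes.

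Genes that work with the receptor were read from lists drawn up from general knowledge. Earlier results of these data were known by then, so these lists and those below are not blind to them. Of 14 tested receptor partners and coregulators, 3 differed from the control with TR1, all lower (21.4%, against 10.6% of all genes), and 0 with wild type or TR2 (limma; 1 and 2 at an unadjusted p under 0.05). GATA3 (log2 fold change -0.54 ± 0.07 SE, adjusted p = 0.00149), the AP-2 factor gene TFAP2C (-0.40 ± 0.07, adjusted p = 0.00674) and FOXA1 (-0.28 ± 0.07, adjusted p = 0.0324) fell. FOXA1, the pioneer factor of the receptor, was counted at 8589 and 7992 in the control, 7553 and 8026 with wild type, 6984 and 6629.8 with TR1 and 7469 and 8085 with TR2. PGR, the progesterone receptor gene that estrogen induces, was counted at 5899 and 6447 in the control, 8305 and 8191 with wild type, 7826 and 18201 with TR1 and 9169 and 10392 with TR2. All 6 libraries with a GATA3 plasmid were above the control, but the TR1 libraries lay far apart, as for NRIP1, and TR1 against the control missed the threshold (0.95 ± 0.30, adjusted p = 0.0788). Against wild type, 4 of 14 differed with TR1, 2 higher and 2 lower (28.6%, against 15% of all genes). With TR2, 1 of 14 was lower than with wild type (7.14%, against 5.24% of all genes), namely GATA3 (-0.40 ± 0.07, adjusted p = 0.0104). The counts of GATA3 do not separate the cells' own transcripts from those of the plasmids, which limits each of its calls here. Between TR2 and TR1, 0 of 14 differed (limma; 5 at an unadjusted p under 0.05).

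A second list held 24 tested genes that estrogen is known to induce and that are not among the 39. Of these, 15 differed from the control with TR1, 7 higher and 8 lower, where 10.6% of all genes were called. With wild type 8 differed, 5 higher and 3 lower (1.69% of all genes), and with TR2 2, both lower (0.921%). Against wild type, 15 differed with TR1, 6 higher and 9 lower (15% of all genes), and 11 with TR2, 5 higher and 6 lower (5.24%). Between TR2 and TR1, 4 differed, 2 in each direction (1.22%). The early response factor EGR3 was counted at 52 and 54.8 with wild type and had at most 2 reads in any other library. It was tested only because its wild-type libraries passed the filter on low counts. Its calls against the other groups therefore carry no weight, and no fold change is given. The counts above still include EGR3, among the 24 tested and the 5 higher with wild type than in the control. It is also among the 9 lower with TR1 and the 6 lower with TR2 than with wild type. The small heat shock protein gene HSPB8 was counted at 314 and 357 in the control, 607 and 606 with wild type, 52.4 and 38.5 with TR1 and 106 and 119 with TR2. It fell with TR1 (log2 fold change -2.87 ± 0.16 SE, adjusted p = 2.38e-05) and with TR2 (-1.57 ± 0.16, adjusted p = 0.0036) against the control. SYBU, which encodes an adaptor of axonal transport, went the other way, at 21.5 and 28, 8.67 and 18.3, 155 and 171 and 63.8 and 74.2 in the same order of groups (TR1 against the control 2.68 ± 0.31, adjusted p = 0.0012).

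Among 8 tested genes of estrogen metabolism, only HSD17B8, which encodes an enzyme that interconverts estrogens, was called. TR1 was below the control (-0.33 ± 0.08, adjusted p = 0.0393) and below wild type (-0.34 ± 0.08, adjusted p = 0.0291), and 1 of 8 (12.5%) is near the 10.6% and 15% of all genes called there. Of 8 genes that estrogen is known to repress, only ERBB2 was called, lower with TR1 (-0.34 ± 0.07, adjusted p = 0.0122) and with TR2 (-0.35 ± 0.07, adjusted p = 0.0212) than with wild type, again 12.5% against 15% and 5.24% of all genes.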

How the data were processed

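Strand-specific libraries were made from total RNA, per the labels' protocols. The submitters' processing notes name TopHat, HTSeq and hg38 with no versions, and the annotation and strand setting are not given in the sources used here. The authors deposited log2 values, log2(normalized count + 1), for 28859 gene symbols in 8 libraries, 2 in each of 4 groups. Turned back to the linear scale, 100% of the deposited values lay within 0.01 of a whole read, which gave the reads behind each value.

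Tests covered the 14881 genes, 38 of the 39 among them, that reached a normalized count of 10 in 2 or more libraries. The 6 comparisons were fitted with limma 3.58.1 (R 4.3.3) as lmFit and trended eBayes on all 8 libraries, with group as the only term, leaving 4 residual and 4.69 prior degrees of freedom. Two-sided p-values were adjusted by Benjamini-Hochberg over all genes within a comparison, at a threshold of 0.05. Log2 fold changes are given ± SE (n = 2 per group) on the log2(value + 1) scale, which understates changes of low genes. Where 2 values are given for a group, they are replicates 1 and 2. Tables were handled in Python 3.11.15.

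The 39 genes, the lists of receptor partners, estrogen metabolism, other estrogen-induced and estrogen-repressed genes, and the marker and proliferation lists were chosen with earlier results of these data known. Values are given for ESR1, GREB1, TFF1, TFF3 and every gene called in at least 1 comparison, and ranges for the rest. From the other lists, up to 3 genes with the largest called change per comparison could be named, and PGR, FOXA1 and GATA3 were named whatever their values. For 1 gene of the receptor partner list, results are not reported here, and the counts of that list leave it out. Positions and transcript lengths come from GENCODE 29 (GRCh38, 1-based), and promoters from RefSeq. The fit was tested on simulated data in which all libraries had the same added noise. That test therefore does not cover the wider spread of the TR1 libraries.

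Alternatives tried were an untrended prior, no filter beyond 1 read, a filter at 100, a pseudocount of 10, median centring, only the groups compared, a replicate block, voom on the recovered reads, and leaving out each library. Taking out each library's trends with GC content and length by loess was added after seeing the data.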

Additional observations from a re-analysis of the deposited data

How the results depend on the processing

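Of the estrogen-related genes, fitting only the groups compared gave 12 called in wild type against the control in place of 4, 7 in TR1 against the control in place of 16, 16 in TR2 against the control in place of 2, 12 in TR1 against wild type in place of 19, 22 in TR2 against wild type in place of 10, and 0 in TR2 against TR1 in place of 4 (limma; 15 at an unadjusted p under 0.05 in the fit of all groups). In the same order, 8.82%, 3.25%, 14.2%, 7%, 20% and 0.396% of all genes were called in these fits. An untrended prior gave 2 in wild type against the control, 0 in TR2 against the control, 6 in TR2 against wild type and 1 in TR2 against TR1. There, 1.49%, 0.645%, 4.43% and 0.766% of all genes were called. With no filter, 1 was called in TR2 against the control and 2 in TR2 against TR1 (0.328% and 0.465% of all genes). Median centring gave 6 in TR2 against wild type (4.66% of all genes). With GC and length trends taken out, 25 were called in TR1 against the control, 10 in TR2 against the control and 8 in TR2 against TR1, where 19.1%, 2.96% and 2.71% of all genes were. Other counts of these settings, and all with a filter at 100, a pseudocount of 10 or voom, lay within 1.5 times.

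Leaving out 1 library at a time gave 0 to 14 in wild type against the control, 7 to 22 in TR1 against the control, 0 to 16 in TR2 against the control, 10 to 23 in TR1 against wild type, 4 to 17 in TR2 against wild type and 0 to 15 in TR2 against TR1. The remaining library of a group was then taken to vary like the other groups. In each of these comparisons, the share of all genes called also ran from below to above that in the fit of all groups. These ranges are therefore not particular to the estrogen-related genes. Leaving out either TR1 library added far more calls over the 6 comparisons than it lost. Leaving out any other library lost calls and added none.

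The labels give no link between libraries of the same number, and the gaps between replicates did not run together across groups, with Pearson's r across genes from -0.40 (control and TR2) to 0.37 (TR1 and TR2). With a replicate block the counts were 3, 14, 1, 16, 8 and 3, in the order wild type, TR1 and TR2 against the control, TR1 and TR2 against wild type, and TR2 against TR1. In that order, 1.24%, 8.39%, 0.665%, 12%, 4.11% and 0.84% of all genes were called.

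Pairs of a gene and a comparison were followed for direction only where at least 1 fit called them. Among these pairs, the direction turned in 12 cases, none of them a call of the fit of all groups. Turns in the other pairs were not counted, and the cause was not tested. In TR1 against the control, leaving out 1 library gave log2 fold changes from -0.0821 to 1.26 for MYBL1, -0.114 to 0.348 for AGR3, -0.377 to 0.0055 for AGR2 and -9e-04 to 0.287 for TSKU, with the TR1 libraries at both ends. AGR3 was at -0.264 and SIAH2 at 0.0233 with GC and length trends taken out. In TR1 against wild type, MYBL1 ran from -0.677 without TR1 replicate 2 to 0.663 without TR1 replicate 1 (adjusted p = 0.000353), was at 0.0481 without wild-type replicate 2 and at 0.0235 with voom. In TR2 against TR1, MYBL1 ran from -0.734 without TR1 replicate 1 to 0.607 without TR1 replicate 2 (adjusted p = 0.00405) and was at 0.0383 without TR2 replicate 1, and NRIP1 ran from -0.952 to 0.37 without these TR1 libraries.

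Over all genes, the number called ran from 49 to 1758 in wild type against the control (251 in the fit of all groups), 483 to 5170 in TR1 against the control (1578), 18 to 2747 in TR2 against the control (137), 859 to 4754 in TR1 against wild type (2229), 226 to 2971 in TR2 against wild type (780), and 29 to 1577 in TR2 against TR1 (181). Taking out GC and length trends moved the share of higher calls from 40.6% to 53.8% in wild type, 46.3% to 62.4% in TR1 and 56.9% to 67% in TR2 against the control, and median centring moved the last to 43.9%. Fitting only the groups compared moved it to 62.5%, 57.6% and 69.5% against the control, and from 48.1% to 18.6% in TR2 against TR1. Leaving out replicate 1 of TR1 gave 25.7% for TR2 against TR1 and 62.6% for wild type against the control, and leaving out its replicate 2 gave 70.6% and 61.7%. The alternatives were not run for named genes outside the 39. With few reads, TFF1 and ELOVL2 limit what could be measured.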
